A study of Mus musculus with 14 samples.

Results

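Keratin, small proline-rich protein (Sprr) and late cornified envelope (Lce) genes were described in 14 CT26 tumors. The members were the genes whose mouse symbol begins with Krt and a digit, with Sprr, or with Lce, and whose expected counts summed over the 14 tumors reached 10. They were 82 of the 53801 genes in the tables, and 11 further genes of these families fell under the minimum. The 3 genes just inside it were Krt24 with a summed count of 10, Krt8-ps with 11.1 and Krt90 with 12, and the 3 just outside were Krt39 with 8 and Krt13 and Sprr4 with 7 each. CT26 cells derive from a Balb/c colon carcinoma, and barcoded cells of this single line were injected under the skin of each flank of Balb/c hosts. The tumors came from mice given a control IgG antibody (5 tumors of 4 mice) or an antibody against PD-1, an inhibitory receptor of T cells. The anti-PD-1 tumors had been classified by their final size relative to control tumors as responders (5 tumors of 4 mice) or non-responders (4 tumors of 3 mice). Each tumor is named by its mouse number and its flank, L or R, and mice 14, 30 and 33 gave both of their tumors. The hosts were female and 6 to 8 weeks old at injection. RNA came from bulk tumor samples, so that fewer cells of a type and less RNA per cell cannot be told apart.

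Keratins form the intermediate filaments of epithelial cells, and each type of epithelium uses its own pairs of them. In the skin, Krt5 and Krt14 mark the dividing basal layer, Krt1 and Krt10 replace them in the layers above, and Krt6a, Krt6b, Krt16 and Krt17 are switched on when the epidermis is wounded or proliferates. Sprr and Lce proteins are crosslinked into the cornified envelope of the outermost cells, and the inner root sheath and the hair shaft have keratin sets of their own. Krt8, Krt18, Krt19 and Krt20 belong to simple epithelia such as the lining of the gut.

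The 14 tumors showed 3 patterns of these transcripts that differed from tumor to tumor, and promoters of members that carry them are given here for orientation. The epidermal genes, which include Sprr2d, Sprr2h and Sprr1b, were high in some tumors and almost absent in others. The hair genes, which include Krt71, were present in a different subset of tumors. Krt20 was high in every tumor. Each window is the 250 bases before the gene start in RefSeq on GRCm38.p6, read 5′ to 3′ on the gene's strand, with TATAAA and TGANTCA in capitals.
Sprr2d, chr3:92338890-92339139, plus strand: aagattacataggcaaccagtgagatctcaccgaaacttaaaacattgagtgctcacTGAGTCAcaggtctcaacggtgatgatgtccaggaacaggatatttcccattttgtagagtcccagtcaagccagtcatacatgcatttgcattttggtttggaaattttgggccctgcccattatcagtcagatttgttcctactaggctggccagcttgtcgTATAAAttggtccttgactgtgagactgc
Sprr2h, chr3:92385435-92385684, plus strand: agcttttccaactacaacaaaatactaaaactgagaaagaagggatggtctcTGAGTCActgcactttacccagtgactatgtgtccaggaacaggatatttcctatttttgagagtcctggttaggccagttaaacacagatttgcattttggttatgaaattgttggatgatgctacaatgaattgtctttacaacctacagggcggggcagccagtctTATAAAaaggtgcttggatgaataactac
Sprr1b, chr3:92438780-92439029, minus strand: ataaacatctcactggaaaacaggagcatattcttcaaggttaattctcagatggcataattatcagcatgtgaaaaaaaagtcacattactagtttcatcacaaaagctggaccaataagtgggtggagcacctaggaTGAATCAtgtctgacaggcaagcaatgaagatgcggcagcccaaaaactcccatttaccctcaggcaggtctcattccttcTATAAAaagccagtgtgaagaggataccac
Krt71, chr15:101743098-101743347, minus strand: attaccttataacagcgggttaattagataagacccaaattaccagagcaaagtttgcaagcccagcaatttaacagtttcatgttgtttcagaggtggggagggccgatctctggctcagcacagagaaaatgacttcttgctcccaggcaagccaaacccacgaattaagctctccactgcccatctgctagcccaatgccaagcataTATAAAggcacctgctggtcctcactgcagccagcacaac
Krt20, chr11:99438154-99438403, minus strand: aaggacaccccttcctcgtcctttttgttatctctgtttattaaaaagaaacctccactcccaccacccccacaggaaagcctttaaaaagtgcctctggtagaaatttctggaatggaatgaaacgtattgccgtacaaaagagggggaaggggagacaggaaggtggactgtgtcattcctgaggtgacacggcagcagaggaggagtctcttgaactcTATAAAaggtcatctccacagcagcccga
TATAAA is the core of the TATA box, and TGANTCA the core of sites bound by AP-1. RefSeq promoters were at hand for 62 of the 82 members. TATAAA, searched on both strands, was present in 28 of these 62 windows (45.2%), against 12.4% of all 32851 promoter windows of the same length. It was found in 15 of 30 keratin, 9 of 12 Sprr and 4 of 20 Lce windows. TGANTCA reads the same on both strands, cannot overlap TATAAA, and was in 9 member windows (14.5%), against 6.75% of all windows. All 9 were Sprr genes, and none of the 30 keratin or 20 Lce windows held these letters. Krt6a, Krt6b, Krt16, Krt17 and Krt80 were among the members without a window, so their promoters were not searched. In 7 of the 10 Sprr2 promoters both motifs were found, with TATAAA beginning 29 bases before the start. In Sprr2d and Sprr2h TGANTCA began 193 and 198 bases before it. These matches describe the letters and not bound sites.

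Of the keratin genes, 22 are on chromosome 11, 24 on chromosome 15 and the pseudogene Krt8-ps on chromosome 7. The 14 Sprr and 21 Lce genes lie next to each other on chromosome 3, from 92215799 to 93019060 on mm10. The expected counts of a tumor totalled 33237744 to 48481461, and the members took from 0.0294% of them in tumor 14R to 0.242% in tumor 30R. Levels are given below in TPM (transcripts scaled to a fixed total per tumor), which divide by transcript length and so allow genes to be compared, and changes in edgeR's log2 fold change of the counts. Before the results, 14R and 33R stand apart by skeletal muscle transcripts. The summed CPM (counts relative to library size) of 8 muscle genes were 1338 in 14R and 788 in 33R, against 26.8 to 450.5 in the other tumors.

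The most abundant member in the average tumor was Krt20 with a mean of 234.5 TPM ± 70.8 (SD, n = 14), followed by Krt14 with 101 ± 93.3 and Sprr2a2 with 87.1 ± 80.03. The SD of Krt14 and of Sprr2a2 was almost as large as the mean, and that of Krt20 was far smaller than it. Between tumors of the same group, the median SD of the log2 CPM was 1.88 over the 68 members that passed the filter on low counts, against 0.23 over all 16287 genes tested. Of these 68 members, 65 lay above the 95th percentile of all genes in this SD, and 24 were among the 100 genes with the largest. The 3 exceptions were Krt20 with an SD of 0.35, Krt18 with 0.32 and Krt80 with 0.30. The heat map of all 82 members shows this contrast between rows that are even and rows that switch from tumor to tumor.

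**Figure D1:**
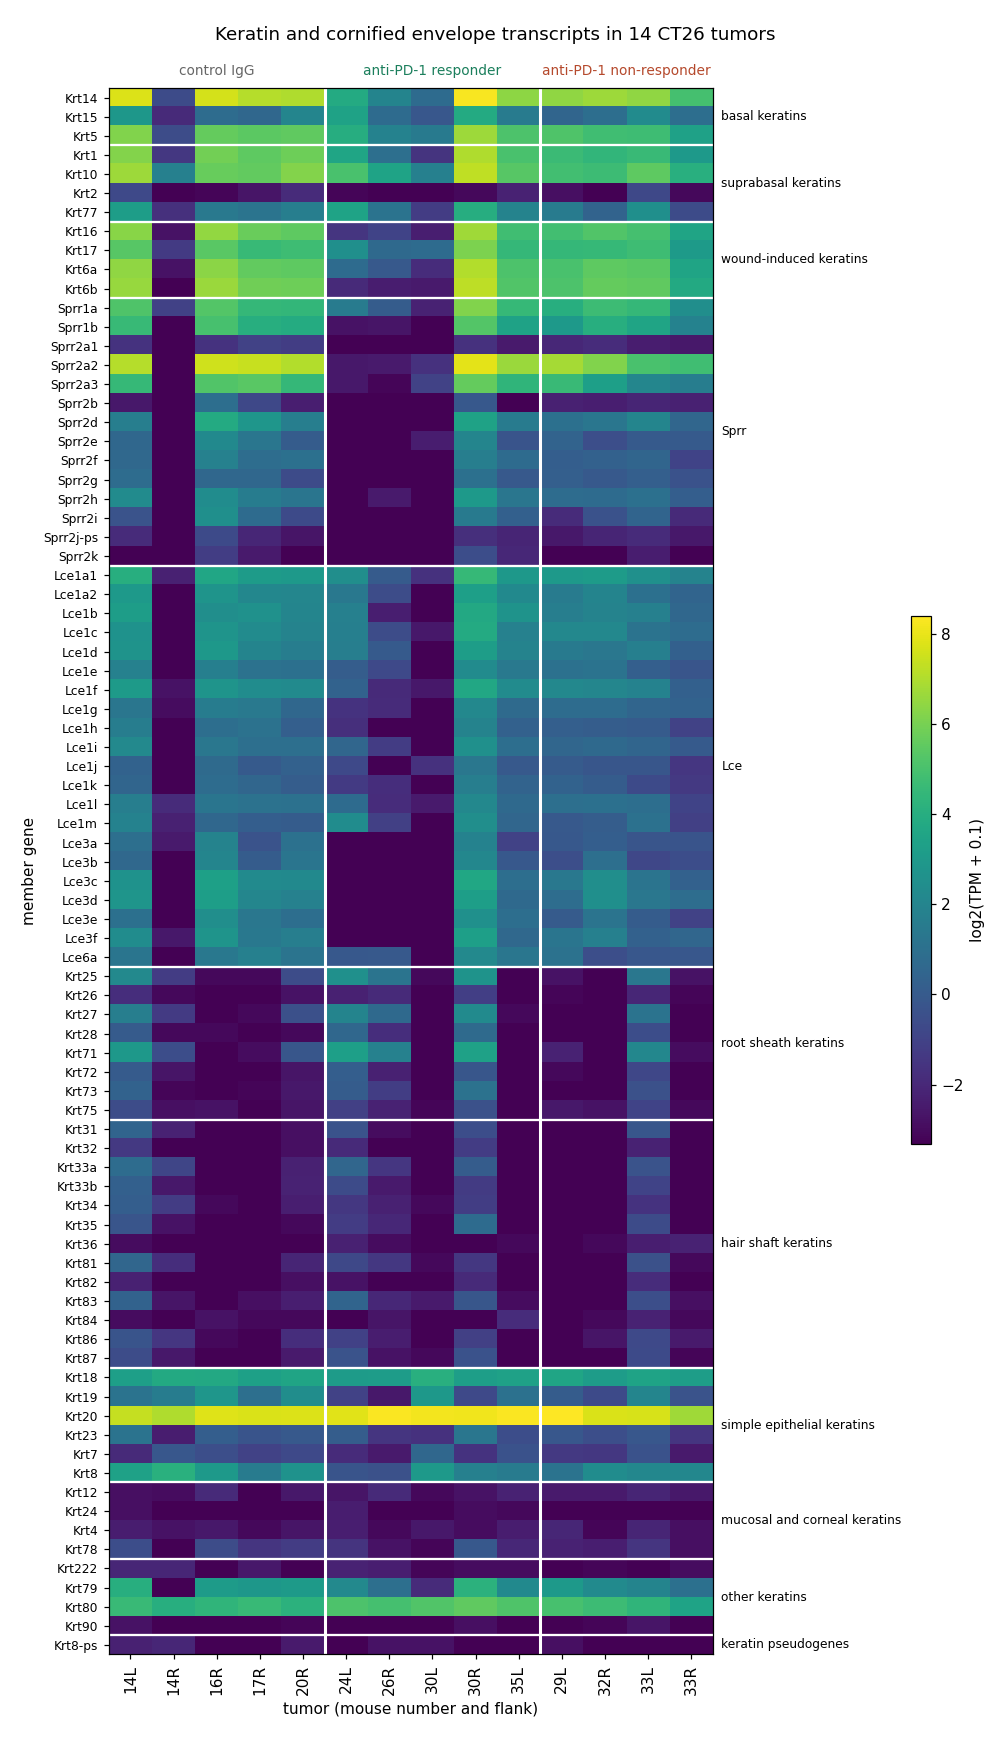
Level of each of the 82 members (rows, grouped by role) in each of the 14 tumors (columns, grouped by treatment and response), as log2(TPM + 0.1) in color. Krt20, Krt80 and Krt18 are even across tumors, the epidermal keratins, Sprr and Lce genes are dark in 14R and 30L, and the root sheath keratins are brightest in 14L, 24L, 26R, 30R and 33L.

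The basal keratins varied up to 576-fold between tumors. Within groups, Krt14 spanned 404-fold in control tumors, where only 14R was low, 191-fold in responders and 3.36-fold in non-responders. Krt14, the partner of Krt5 in the filaments of basal keratinocytes, stood in control IgG tumors at 218 TPM in 14L, 0.54 in 14R, 204 in 16R, 137 in 17R and 128 in 20R. In responders it was 14.4 TPM in 24L, 3.79 in 26R, 1.63 in 30L, 311 in 30R and 84.6 in 35L. In non-responders it was 86.8 TPM in 29L, 102 in 32R, 89.2 in 33L and 30.4 in 33R. The 4 lowest tumors were 1 control and 3 responders, and the groups overlapped throughout. Krt5 followed with 0.56 TPM in 14R to 104 in 30R, with 16.0 in 24L, 3.61 in 26R, 2.72 in 30L and 10.4 in 33R as the other low values. Krt15, a basal keratin also made in the hair follicle bulge, kept a different order. It was 10.8 TPM in 24L, second to the 14.2 of 30R, although 24L had little Krt14. As a share of Krt14, Krt15 was 74.8% in 24L, 43.3% in 26R, 49.7% in 30L and 29.6% in 14R, against 0.823% to 5.86% in the other 10 tumors.

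The suprabasal keratins were low in the same tumors, and Krt10 was so to a lesser degree than Krt14. Krt10, the type I keratin of differentiating epidermis, was 104.5 TPM in 14L, 3.40 in 14R, 50.9 in 16R, 48.7 in 17R and 75.6 in 20R among control tumors. Responders had 33.0 TPM in 24L, 11.03 in 26R, 3.32 in 30L, 156 in 30R and 40.6 in 35L. Non-responders had 28.9 TPM in 29L, 26.6 in 32R, 44.8 in 33L and 16.7 in 33R. Tumor 24L therefore lay within the range of the non-responders for Krt10, while it lay below all of them for Krt14. Krt10 exceeded Krt14 in 24L, 26R, 30L and 14R, at 204% to 630% of its TPM, and was 24.9% to 58.9% of it in the other 10 tumors. Krt1, the partner of Krt10, ranged from 0.24 TPM in 30L to 131 in 30R. This difference within mouse 30 was 544-fold, against 191-fold for Krt14 and 46.95-fold for Krt10. Krt77, a further suprabasal keratin, ranged from 0.21 TPM in 14R to 15.8 in 30R, with 11.02 in 24L as the second highest. Krt2, a keratin of the upper layers in ear and sole skin, did not pass the filter on low counts and was at most 0.51 TPM.

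The wound-induced keratins fell into a low and a high set of tumors with a wide gap between them. Krt6b, which pairs with Krt16 and Krt17 in stressed epidermis, was 97.9 TPM in 14L, 100 in 16R, 58.4 in 17R and 55.9 in 20R, and 14R had no read of it. A count of 0 allows up to 0.0641 CPM in 14R, taken as 3 counts and covering counting error only. Responders had 0.16 TPM in 24L, 0.09 in 26R, 0.08 in 30L, 149 in 30R and 37.5 in 35L. Non-responders had 35.3 TPM in 29L, 50.4 in 32R, 47.3 in 33L and 13.9 in 33R. No tumor lay between 0.16 and 13.9 TPM, with 1 control and 3 responders at the low end and all 4 non-responders above the gap. Krt6a, Krt16 and Krt17 ranked the tumors almost as Krt6b did, with rank correlations of 0.95 to 1.0 over the 6 pairs of these genes. Krt17, which is also made in the hair follicle, was the one best retained in the low tumors, at 5.59 TPM in 24L. Of the 100-base windows of Krt6a and of Krt6b, 30.6% each occur identically in another gene, mostly the other of the pair, and RSEM divided their shared reads, so that the split between them is uncertain and their sum less so.

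Of the cornified envelope precursors, Sprr and Lce3 behaved like the wound keratins, whereas Lce1 in sum was retained in 24L as the suprabasal keratins were. The 12 Sprr2 members summed to 165 to 263 TPM in the control tumors other than 14R, in which all 12 had no read. They summed to 0.14 TPM in 24L, 0.17 in 26R and 0.71 in 30L, against 321 in 30R and 131 in 35L among responders. Non-responders had 147 TPM in 29L, 89.6 in 32R, 48.3 in 33L and 35.5 in 33R. Most of this sum was Sprr2a2, at 240.0 TPM in 30R and 27.6 in 33R, but 92.8% of its 100-base windows also occur in the overlapping gene model Sprr2a1, so the 2 are not separable. Sprr1a ranged from 0.12 TPM in 30L to 72.2 in 30R and Sprr2a3 from no read in 14R to 49.5 TPM in 30R. Sprr1b, named beside Sprr1a after its values were seen, reached 39.0 TPM in 30R. Sprr1a kept 2.89 TPM in 24L, where Sprr1b was 0.05.
The 14 Lce1 genes, whose products enter the envelope of normal epidermis, summed to 29.1 TPM in 24L, close to the 30.0 of 33L. In 14R and 30L they summed to only 0.47 and 0.66 TPM. Over the 14 tumors the median rank correlation of Lce genes was 0.91 with wound-induced and 0.82 with suprabasal keratins. The 6 Lce3 genes, known for their induction after barrier injury, had no read in 24L, 26R or 30L and summed to 0.15 TPM in 14R, while every other tumor had 5.93 TPM (33R) to 45.4 (30R). Among the most abundant Lce genes, Lce1a1 ranged from 0.11 TPM in 14R to 23.2 in 30R, Lce1b from 0 to 13.5 and Lce1f from 0.05 to 13.2. Tumor 24L thus had Lce1 but no detected Lce3 transcripts.

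**Figure D2:**
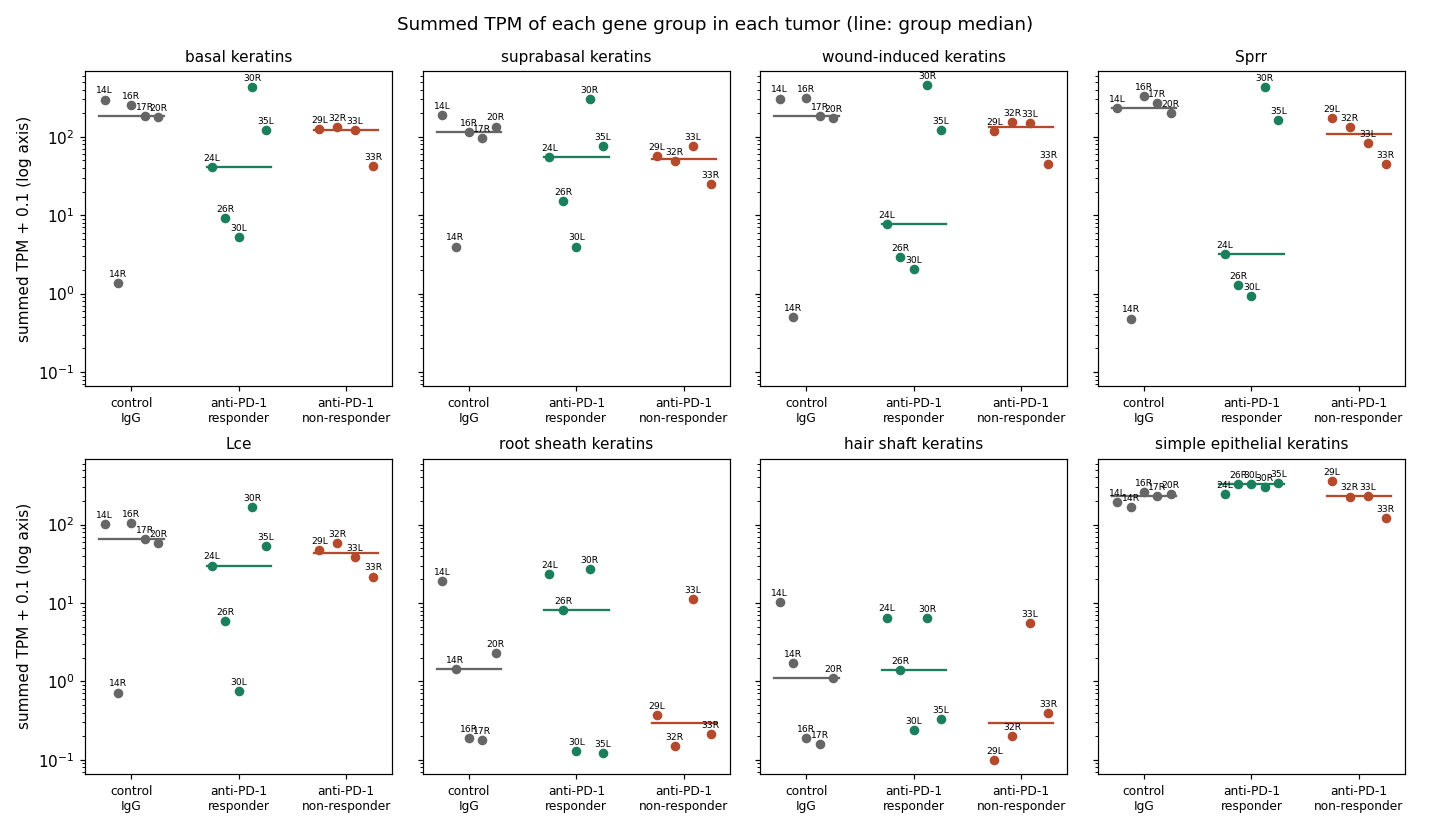
Summed TPM + 0.1 of 8 gene groups (log axis) in each tumor, by group, with the group median as a line. Control tumor 14R and responders 26R and 30L lie at the bottom of the epidermal panels, whereas simple epithelial keratins lie between 122 and 356 TPM in all tumors.

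Hair keratins were found in another subset of tumors. Krt71, a type II keratin of the inner root sheath, was 7.60 TPM in 14L, 0.58 in 14R, 0.03 in 17R, 0.77 in 20R and without a read in 16R. In responders it was 9.70 TPM in 24L, 3.42 in 26R and 10.3 in 30R, and 30L and 35L had no read. In non-responders it was 4.23 TPM in 33L, 0.12 in 29L and 0.03 in 33R, and 32R had no read. Each group thus held at least 1 tumor with several TPM and at least 1 tumor at or under 0.03, which rests on 2 counts or fewer. The 8 root sheath keratins together summed to 8.08 TPM or more in 14L, 24L, 26R, 30R and 33L, to 1.35 in 14R and 2.22 in 20R, and to 0.27 or less in the other 7 tumors. The 13 hair shaft keratins, which build the cortex and cuticle of the hair, summed to 10.2 TPM in 14L, 6.40 in 24L, 6.38 in 30R and 5.47 in 33L. They were at most 1.59 TPM elsewhere, and 29L had no read of any of the 13. Krt33a ranged from no read in 7 tumors to 1.67 TPM in 14L. The median rank correlation between a root sheath and a hair shaft keratin was 0.88 over 72 pairs, but 0.18 between a root sheath and a wound keratin over 32 pairs, as a description over the same 14 libraries. Of the 100-base windows of Krt86, 24.6% occur in another gene, mostly Krt81, so the split between these genes is uncertain.

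**Figure D3:**
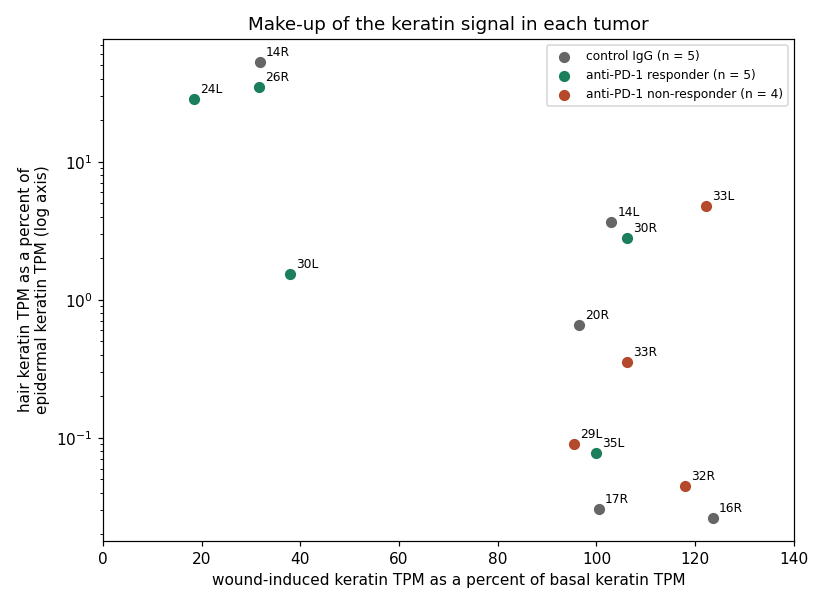
Wound-induced keratin TPM as a percent of basal keratin TPM (x axis) against hair keratin TPM as a percent of epidermal keratin TPM (y axis, log scale), 1 point per tumor. In 10 tumors the wound keratins were 95.5% to 124% of the basal keratins, and in 14R, 24L, 26R and 30L they were 18.5% to 37.8%.

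The make-up of the keratin signal, apart from its amount, therefore also split the tumors. The 4 wound-induced keratins together were 18.5% of the 3 basal keratins in 24L, 31.6% in 26R, 31.8% in 14R and 37.8% in 30L, and 95.5% to 124% in the other 10 tumors. Hair keratins were 28.3% of the epidermal keratins in 24L, 34.7% in 26R and 53.1% in 14R, and 4.797% or less in every other tumor. In 14R this share rests on low levels of both, 2.94 TPM of hair keratins and 5.54 TPM of epidermal keratins. In the scatter of these shares 30L stands alone, with few wound keratins and 1.55% of hair keratins. Its hair share rests on only 0.17 TPM, and 1.59 of its 1.95 TPM of wound keratins were Krt17.

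Of the 6 keratins of simple epithelia, Krt7, Krt8, Krt18, Krt19 and Krt20 followed neither pattern, whereas Krt23 was low with the epidermal genes. Krt23 was 2.12 TPM in 14L against 0.09 in 14R, and 2.35 TPM in 30R against 0.22 in 30L. Krt20, a keratin of intestinal and bladder epithelium, was 168 TPM in 14L, 130.5 in 14R, 228 in 16R, 217 in 17R and 219 in 20R. Responders had 233 TPM in 24L, 319.7 in 26R, 293 in 30L, 286 in 30R and 321 in 35L. Non-responders had 340.1 TPM in 29L, 212 in 32R, 209 in 33L and 107 in 33R. The values spanned 3.17-fold in TPM and 2.41-fold in CPM, and 14R and 33R were the lowest on either scale. Every responder exceeded every control tumor in TPM but not in CPM, while non-responders overlapped both groups. Krt20 made up 12.02% of the members' TPM in 14L and 78.7% in 26R. Krt18 was also even, at 8.56 TPM in 24L to 16.7 in 30L. Krt8, the filament partner of Krt18, was not. It was 10.3 TPM in 14L, 17.1 in 14R, 7.70 in 16R, 2.88 in 17R and 6.31 in 20R among controls. Responders had 0.72 TPM in 24L, 0.64 in 26R, 7.91 in 30L, 3.31 in 30R and 2.84 in 35L. Non-responders had 2.13 TPM in 29L, 5.19 in 32R, 4.26 in 33L and 4.19 in 33R. Krt8 was thus highest in 14R, and 30L had the most Krt8 of the responders, while both tumors were the lowest in Krt14. Krt19, another simple epithelial keratin, was highest in 30L at 7.62 TPM, with 7.13 in 16R, 2.98 in 14R and 0.07 in 26R. Of the other colon and epithelial genes looked up, Cdx1 had no read in any tumor, Vil1 was at most 0.174 CPM, and Epcam was 0.554 to 5.33 CPM, so that these markers were absent or low although CT26 comes from the colon.

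Krt80, a type II keratin of several epithelia, was the only member that passed the edgeR test, in responders against control IgG tumors. Between non-responders, also given anti-PD-1, and control tumors Krt80 did not pass (edgeR adjusted p = 0.931). Control tumors had 24.7 TPM in 14L, 16.2 in 14R, 20.5 in 16R, 23.7 in 17R and 18.7 in 20R. Responders had 35.4 TPM in 24L, 31.0 in 26R, 37.4 in 30L, 46.7 in 30R and 35.9 in 35L. Non-responders had 32.2 TPM in 29L, 26.1 in 32R, 20.6 in 33L and 10.9 in 33R. Responders and control tumors did not overlap, and 29L was the only non-responder within the responders' range. Krt79, a keratin of the upper hair follicle, was unlike it and ranged from no read in 14R to 18.5 TPM in 30R. The remaining members were rare: Krt4, Krt12, Krt24, Krt78, Krt90, Krt222 and Krt8-ps stayed at or below 0.83 TPM.

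Left and right tumors of the same mouse differed in these genes, by far more in mice 14 and 30 than in mouse 33. In mouse 14, given control IgG, Krt14 was 404-fold higher in TPM on the left. On that side 64 of the 68 members that passed the filter were higher, with a median difference of 3.89 in log2 CPM. The 4 that were higher on the right were Krt7, Krt8, Krt18 and Krt19. In mouse 30, a responder on both flanks, Krt14 was 191-fold higher in TPM on the right. On that side 63 members were higher, and the 5 higher on the left were Krt7, Krt8, Krt18, Krt19 and Krt20. In mouse 33, a non-responder on both flanks, 57 members were higher on the left, with a median difference of 1.06 in log2 CPM. Krt14 was 1.07 higher there in log2 CPM, and 2.94-fold higher in TPM. Krt71 was at 4.23 TPM on the left and 0.03 on the right of mouse 33, while in mouse 30 the left tumor had no read of it and the right 10.3 TPM. Of the members, 92.6% differed by more than 1 in log2 CPM between the tumors of mouse 14, 95.6% in mouse 30 and 55.9% in mouse 33, against 8.47%, 7.72% and 11.2% of all genes tested. These are single tumors on each side, given without a test, and the higher side was left in 2 mice and right in 1.

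**Figure D4:**
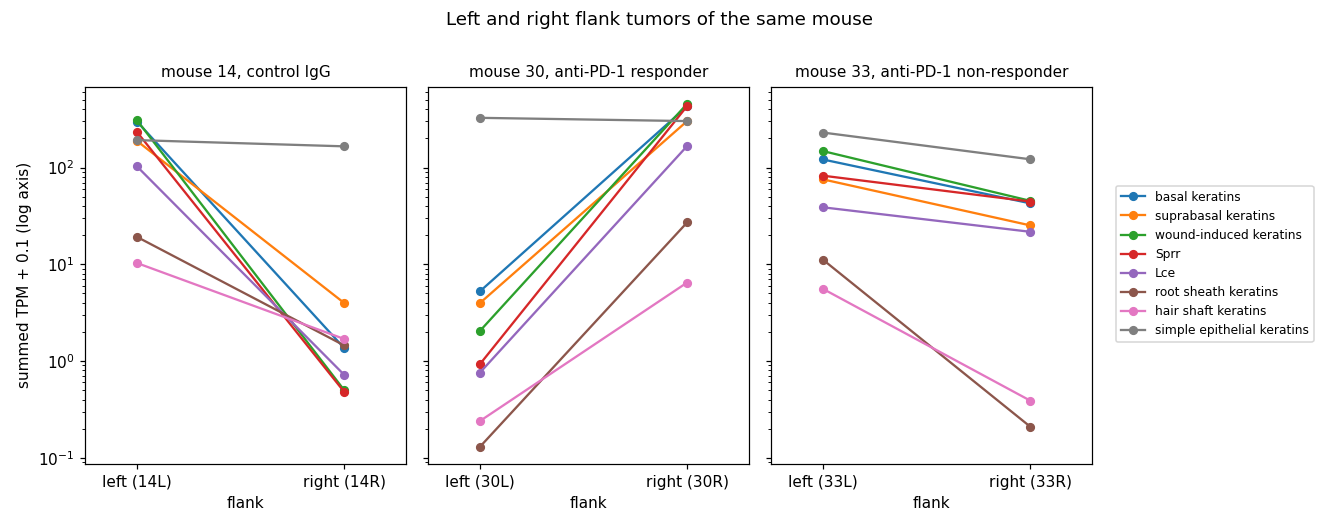
Summed TPM + 0.1 (log axis) of 8 gene groups in the left and the right flank tumor of mice 14, 30 and 33. The lines of the epidermal and hair groups are steep and run in different directions in mice 14 and 30, and the line of the simple epithelial keratins is nearly flat there.

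The genes outside these families that ranked the tumors most as Krt14 did were Perp, Asprv1, Sbsn, Calm4, Dsc1, Dsg3 and Klk6, each with a Spearman rho of 0.99 over the 14 tumors, and Endou, Klk7 and Grhl3 with 0.98. Dsc1, Dsg3 and Perp are parts of desmosomes or needed for them, Klk6 and Klk7 are skin proteases, and Grhl3 is a transcription factor of the epidermal barrier. For Krt71, chosen after its values were seen, the closest were Prr9 with 0.95, Krtap11-1 with 0.91 and Krtap8-1 with 0.90, the last 2 being keratin-associated proteins of the hair shaft.
Relations of 8 genes to Krt14 were computed over the 11 mice, with the tumors of a mouse averaged on the log2 CPM scale and two-sided permutation tests of 100000 resamples. The 8 are from members and lists chosen with earlier results of these data known. Their p-values therefore describe these genes and are not independent support. Krt17 had r = 0.99 and rho = 0.97 (p = 2e-05, the smallest these resamples can give, and 4e-05, both adjusted to 0.00016 over the 8). Krtdap, a secreted keratinocyte protein, had r = 0.96 and rho = 0.95, and Dsg1a, a desmosomal cadherin, r = 0.94 and rho = 0.95 (p = 6e-05 and adjusted p = 0.00016 in each permutation test). Trp63, the master transcription factor of stratified epithelia, had r = 0.86 and rho = 0.85 (adjusted p = 0.00172 and 0.00292, from p = 0.00086 and 0.00146). Not every desmosome, hemidesmosome or epidermal transcription factor gene looked up fell with Krt14. Itgb4 was 147 CPM in 14R and 161 in 14L, Dst 258 in 30L and 260 in 30R, and Tfap2a 4.37 to 7.39 CPM in all tumors. Without mice 14 and 26, the farthest from the median of Krt14, r was 0.98 for Krt17, 0.91 for Krtdap, 0.84 for Dsg1a and 0.73 for Trp63. Krt8 (r = 0.48, rho = 0.38, p = 0.144 and 0.246), Krt18 (r = 0.51, rho = 0.39, p = 0.116 and 0.235), Acta1 of skeletal muscle (r = -0.43, rho = -0.37, p = 0.189 and 0.262) and Adipoq of fat (r = -0.05, rho = -0.03, p = 0.886 and 0.949) had adjusted p-values of 0.185 to 0.949 in these permutation tests. Over the 14 single tumors, r with Krt14 was -0.01 for Krt8 and -0.40 for Krt18, a change of sign from the means per mouse.

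Other tissues of the flank moved between tumors too. The 20 further cornified envelope and differentiation genes summed to 18.5 CPM in 14R, 32.4 in 26R, 35.4 in 30L, 72.4 in 24L and 80.2 in 33R, and to 139 to 419.6 in the other 9 tumors. The melanocyte list stayed at 0.171 to 1.55 CPM in sum, with Tyr and Mlana at or near 0. The adipocyte list was highest in 33R (143.5 CPM), 30L (129.5), 16R (123) and 14R (122), and the muscle list lowest in 30L (26.8). None of these lists had a gene that passed the test in any comparison, apart from the intestinal list. In that list Cdx2 was lower in responders than in control tumors (log2 fold change -1.97, edgeR adjusted p = 0.0303). Cdx2 was low in every tumor, at 0.0199 to 0.68 CPM, and 13.2% of all genes tested were called in that comparison. The part of these tissues in the differences between the groups was not tested.

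Responders and non-responders were compared to ask which genes go with the response to anti-PD-1. Among all 16287 genes tested, 9.9% were called at an adjusted p of 0.05 by edgeR (1612 genes, with 5.08% higher and 4.82% lower in responders). Of the 68 members that passed the filter 0 were called. Krt80 was the 1 member with an unadjusted p under 0.05, against 27.8% of all genes, and DESeq2 called this 1 member. Krt14 had a log2 fold change of -0.15 ± 1.21 (SE; adjusted p = 0.954 in edgeR), with mean CPM of 89.9 in responders and 99.6 in non-responders. Krt6b had -0.23 ± 1.51 and Sprr2a2 -0.11 ± 1.43 on the same scale. The root sheath keratins had the largest median, 1.89, with 8 of 8 higher in responders, but Krt71 at 1.98 ± 1.77 had an adjusted p of 0.494 in edgeR. Over the 68 members the median log2 fold change was 0.22, with 43 higher in responders, and over all genes tested 0.01. This median turned to -0.94 without tumor 30R, over the 60 members that then passed the filter. It was -0.95 in limma-voom with mouse as a random effect, where the estimated correlation within mice was -0.282. On log2(TPM + 0.1), without a mouse term, it was -0.57 as well, against 0.24 over all genes. Krt80 was 0.52 ± 0.18 higher (adjusted p = 0.0811 in edgeR, and 0.0213 to 0.196 over 10 alternatives, of which 4 called it), and it was called at 0.0266 without non-responder 29L.

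Responders and control IgG tumors were compared for genes that differ between treated tumors that responded and tumors without anti-PD-1. Of all genes tested, 13.2% were called by edgeR (2147 genes, with 7.88% higher and 5.3% lower in responders), and of the 68 members 1. Krt80 was 1.65-fold higher in responders (log2 fold change 0.72 ± 0.17, adjusted p = 0.0139), with a mean of 82.4 CPM in responders and 49.97 in control tumors. It was higher in 5 of 5 responders than in any control tumor, which also held for 15.1% of all genes tested in one direction or the other. Its adjusted p was 0.00118 to 0.0358 over 10 alternatives and 0.0163 to 0.0428 when each tumor was left out in turn. The mean fragment length of the libraries was 269.5 to 277.0 bases in responders, 268.7 to 277.7 in control tumors and 277.5 to 287.8 in non-responders, and its part in the difference of Krt80 between responders and non-responders was not tested.
Krt8 was lower in responders by the fitted value, -1.67 ± 0.62, with an adjusted p of 0.0897 in edgeR, and reached 0.0191 without 30L, the responder with the most Krt8. Krt20 had 0.47 ± 0.20 and an adjusted p of 0.143. Krt14 had -0.88 ± 1.15 and Krt15 1.01 ± 0.80, and neither passed (edgeR adjusted p = 0.665 and 0.443). The 11 Sprr genes tested had a median of -1.04 with 0 of 11 higher in responders, the 21 Lce genes -0.44 with 1 higher, and the 8 root sheath keratins 1.25 with 8 higher. No gene of these 3 sets passed the test. Over all 68 members the median was -0.50, with 17 higher, against -0.01 over all genes. Without 30R it was -1.64, over the 60 members that then passed the filter.

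Non-responders and control IgG tumors, which share the control samples with the comparison before, differed in no gene. In edgeR 0.0% of the genes tested and 0 of the 68 members were called, at an unadjusted p under 0.05 there were 758 genes (4.65%) and 0 members, and DESeq2 called 16 genes and 0 members. The groups overlapped for all 68 members, against 1.25% of all genes tested without overlap. The fitted values of the members were mostly negative, with a median of -0.67 and 4 of 68 higher in non-responders, against 0.01 over all genes. Krt14 had -0.74 ± 1.23 and Krt10 -0.87 ± 0.91, each smaller than its SE, and Krt80 had 0.20 ± 0.18. Tumor 14R, with almost no epidermal transcripts, is in the control group, and the median was -0.98 without it. In limma-voom with mouse as a random effect the median was 0.26, with 44 of 68 higher, the opposite direction.

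**Figure D5:**
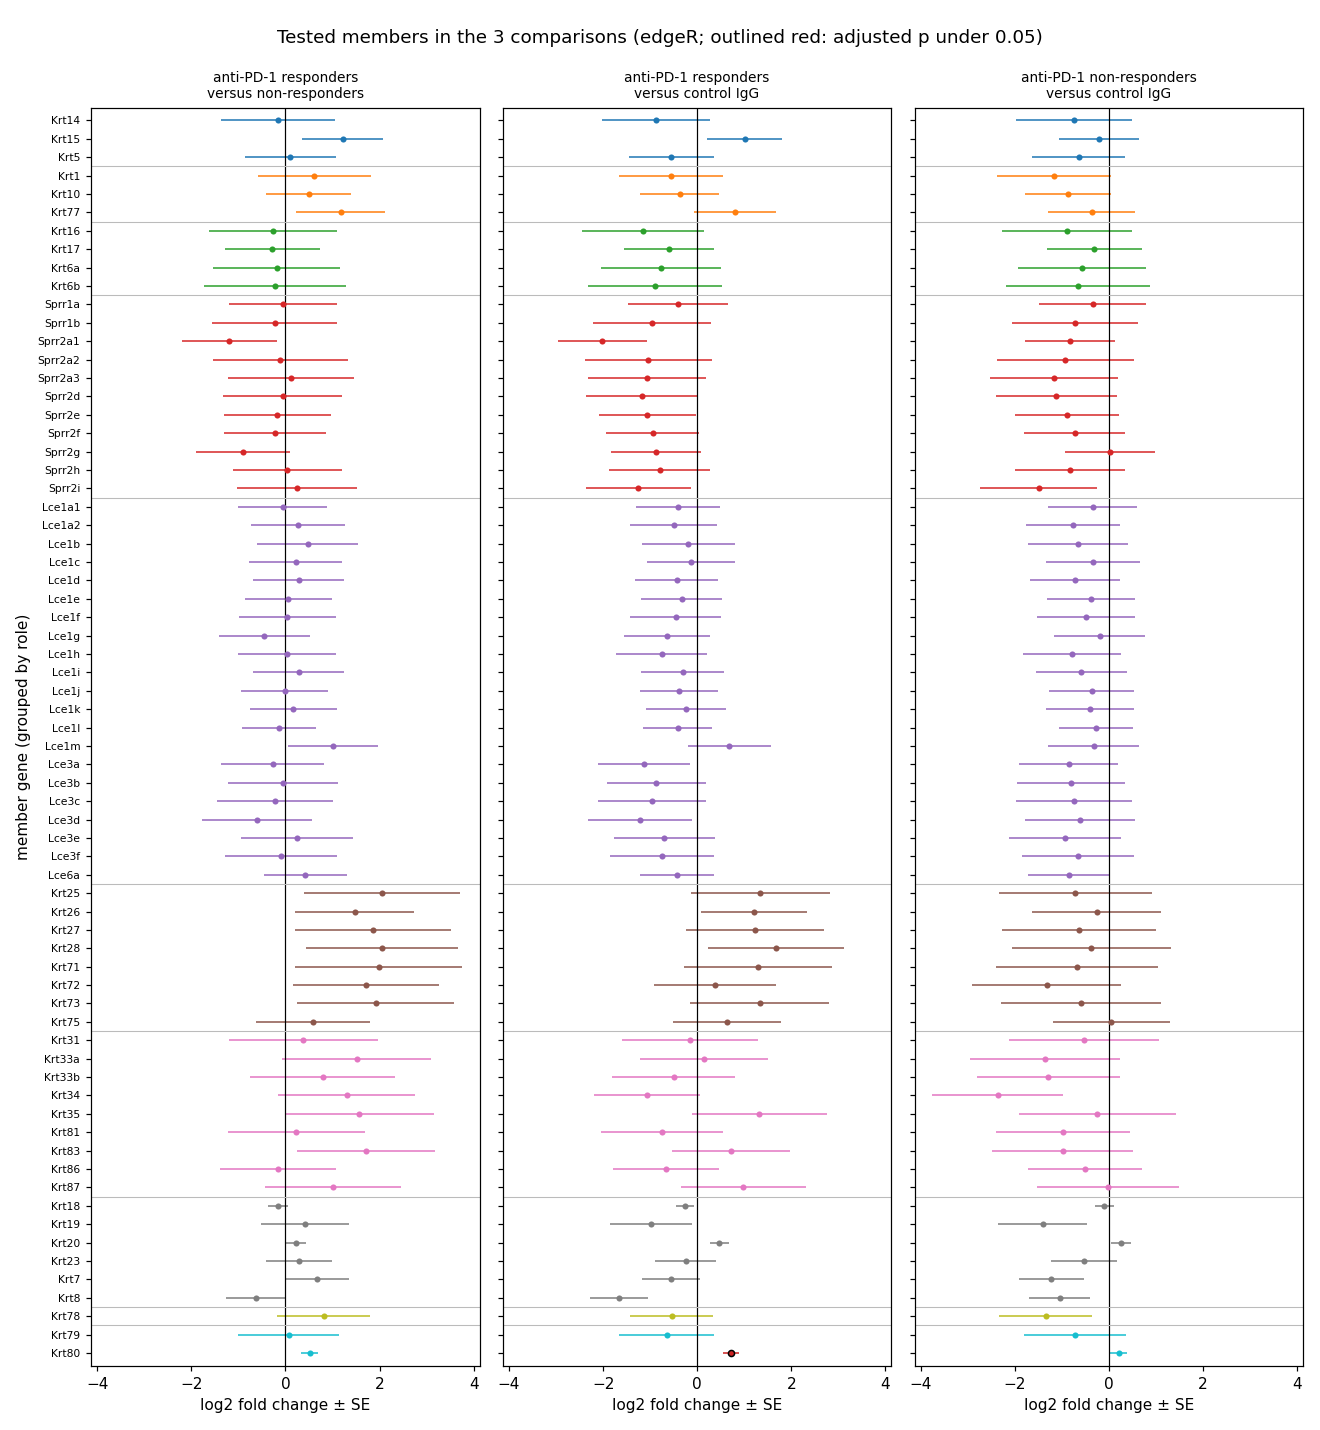
Log2 fold change with its standard error (x axis) of the 68 members tested, grouped by role (y axis), in the 3 comparisons. Most error bars cross 0, and those of Krt18, Krt20 and Krt80 are the shortest, with Krt80 the only member that passed (adjusted p = 0.0139, responders against control IgG).

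When the log2 CPM of Krt14 in each tumor was added to the fit as a covariate the number of genes called over the whole table changed. It was 2465 in place of 1612 for responders against non-responders, 2474 in place of 2147 for responders against control IgG, and 5 in place of 0 for non-responders against control IgG. Among members, Krt80 and Krt5 were then called in the first of these comparisons, Krt80, Krt8 and Krt15 in the second, and none in the third. The covariate was itself a member, so these member calls describe levels relative to Krt14.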

How the data were processed

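Bulk RNA-seq of 14 tumors was analysed, 1 table per tumor. Tools named in the submitters' processing notes are STAR and RSEM, with build mm10; their versions for the tumors are not given in the sources used here. Expected counts, as deposited, are estimated fragments per gene from RSEM, not normalized. The TPM that the authors deposited are scaled by effective length and to the same total. The FPKM that the authors deposited were not used. Effective lengths gave the mean fragment length.

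Symbols were matched for 53620 of 53801 Ensembl identifiers. Groups came from the titles, and mice from the number before L or R. Each tumor counted as a replicate although 3 mice gave 2 tumors. The members, roles and lists were chosen with earlier results of these data known. Expected counts were rounded and fitted for all 14 tumors in edgeR 4.0.16 (R 4.3.3) with filterByExpr, TMM and quasi-likelihood tests, adjusted by Benjamini-Hochberg over 16287 genes. The fit was tested on simulated counts with a common spread for all genes and no mouse effect. The simulation does not cover genes that vary as much as most members. Log2 CPM used a prior count of 2. DESeq2 1.42.0 and limma 3.58.1 were alternatives, with TPM on log2(TPM + 1) or log2(TPM + 0.1), other filters and scalings, flank as a covariate, tumors summed per mouse, only the 2 groups compared, and each tumor left out. The filter removed 14 members with low counts, which have levels but no test. Named genes were the members by role, the 3 Sprr and 3 Lce genes highest in mean TPM, members called, and the 10 genes most like Krt14. Reads shared between near-identical members were measured as 100-base windows found in another gene.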

Additional observations from a re-analysis of the deposited data

Results flagged for a closer look

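Within groups of 4 or 5 tumors, 1 tumor lay far from the rest of its group in 8 of 45 sets examined, by Dixon's criterion on log2(TPM + 0.1). Chance alone picks out about 1 in 20 sets, and the gene groups share the same tumors. Control tumor 14R was the lowest of its group for the basal keratins (1.26 TPM, next lowest 179), Krt14 alone (0.54 TPM, next 128), the suprabasal keratins (3.88 TPM, next 95.5), the wound-induced keratins (0.40 TPM, next 173), the Sprr genes (0.38 TPM, next 202) and the Lce genes (0.62 TPM, next 58.3). The summed CPM of the skeletal muscle list was highest in the same tumor, and its part in this was not tested. Non-responder 33R was the lowest of its group for the basal keratins (42.6 TPM, next 121) and for Krt14 (30.4 TPM, next 86.8). It also had the second highest muscle sum. In CPM the gap was smaller, with Krt14 at 50.4 in 33R and 106 to 134.5 in the other non-responders. The criterion was not applied to CPM. No responder met the criterion in these sets, and 24L, 26R and 30L lay low together.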

How the results depend on the processing

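The number of members called was within 1.5 times the main count, or equal to it, in 49 of 58 alternatives. In responders against non-responders it was 1 in place of 0, Krt80 each time, in DESeq2, in limma-voom with mouse as a random effect and on log2(TPM + 1) and log2(TPM + 0.1), and 0 to 1 when each tumor was left out. In responders against control IgG it was 2 in place of 1 in limma-voom (with Krt8) and with only the 2 groups compared (with Krt20), and 1 to 2 when each tumor was left out (with Krt8 without 30L and Lce3a without 30R). In non-responders against control IgG it was 0 throughout. Leaving out 14R and 33R, an alternative added after the data were seen, gave 0, 1 and 0 members. Counts over all genes moved further. For responders against non-responders (1612) they were 2559 in DESeq2, 2973 in limma-voom, 689 with only the 2 groups, 569 without 24L, 686 without 30R, 615 without 32R and 793 without 33R. For responders against control IgG (2147) they were 1388 with flank as a covariate, 3249 without 14R and 33R, 1190 without 20R, 1192 without 24L and 1387 without 30R. For non-responders against control IgG (0) it was 16 in DESeq2. On the log2(TPM + 1) and log2(TPM + 0.1) scales the median of all genes shifted to 0.17 and 0.24 in responders against non-responders, so changes there are relative to it. No paired analysis was possible because the groups share no replicate numbers.

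Fitted log2 fold changes of 14 members were followed, and signs turned only for values that had not passed. In responders against non-responders, Krt5 (0.10) was -0.80 in limma-voom, -0.17 with tumors summed per mouse, -0.58 on log2(TPM + 1), -0.69 on log2(TPM + 0.1) and -0.08 without 14R and 33R, Krt10 (0.49) was -0.56, -0.15 and -0.20 in limma-voom and on the TPM scales in that order, and Krt18 (-0.16) was 0.04 on both TPM scales. In non-responders against control IgG, limma-voom gave 0.47 for Krt5, 0.78 for Krt14, 0.57 for Krt15, 0.13 for Krt77, 2.33 for Krt6b, 1.68 for Sprr2a2 and 0.88 for Lce1a1, log2(TPM + 0.1) gave 0.09 for Krt5, 0.35 for Krt14, 0.29 for Krt15, 0.72 for Krt6b, 0.56 for Sprr2a2 and 0.35 for Lce1a1, and log2(TPM + 1) gave 0.11 for Krt14, 0.03 for Krt15 and 0.09 for Krt6b. Krt33a in responders against control IgG was -0.14 in limma-voom. The cause was not tested.

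On leaving out single tumors, the ranges that crossed 0 in responders against non-responders were -1.0 to 0.40 for Krt5, -1.74 to 0.17 for Krt14, -0.64 to 0.80 for Krt10, -2.12 to 0.09 for Krt6b, -1.44 to 0.32 for Sprr2a2 and -1.07 to 0.25 for Lce1a1. In responders against control IgG it was -0.61 to 1.59 for Krt33a. In non-responders against control IgG they were -0.76 to 0.47 for Krt15, -1.03 to 0.35 for Krt77, -4.96 to 1.52 for Krt71, -7.42 to 0.08 for Krt33a, -0.01 to 0.40 for Krt20 and -0.18 to 0.00 for Krt18. Members at few counts in the low tumors have levels set mainly by counting error, and their log2 CPM by the prior count. P-values measure the spread between tumors, some of which share a mouse.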
